A study of Mus musculus with 6 samples.

Results

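Proteasome genes were measured in H10 cells and in C8 cells, and 45 of the 19930 genes on the arrays belonged to this group. Its members were all genes whose annotated symbol begins with Psma, Psmb, Psmc, Psmd or Psme followed by a number, each represented by its brightest feature. They comprised 5 inducible subunits (Psmb8, Psmb9, Psmb10, Psme1 and Psme2), 31 constitutive subunits of the standard particle, 3 assembly chaperones, 2 other activators, 2 subunits known from single tissues and 2 genes that share only the name. H10 and C8 were established from RAW264.7, a mouse macrophage line. Cultures of H10 formed large multinucleated osteoclasts and those of C8 did not. Both lines carried a Lifeact-mEGFP fusion, a fluorescent actin label delivered by retrovirus, and RNA was taken after 2 days in sRANKL (60 ng/mL). sRANKL is the soluble cytokine that starts osteoclastogenesis (OCG). Each line came from a puromycin-resistant clone picked by limiting dilution, so fusion capacity cannot be told apart from any other difference between the 2 clones. Expression was measured on 3 arrays for each line, and whether these were independent cultures is not given in the labels or the methods. The spread behind the p-values is that between arrays and may be technical.

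The proteasome is the barrel-shaped protease that degrades ubiquitin-tagged proteins. Its core particle, 20S, has outer rings of α subunits and inner rings of β subunits, and only the subunits β1, β2 and β5 are catalytic. The regulatory particle, 19S, recognises, unfolds and feeds in the substrate. In cells exposed to interferon the catalytic subunits are replaced, at assembly, by β1i (Psmb9), β2i (Psmb10) and β5i (Psmb8), which gives the immunoproteasome, and the interferon-inducible cap PA28, made of PA28α (Psme1) and PA28β (Psme2), can replace 19S. These forms are best known for making peptides for MHC class I, and macrophages hold some of them without stimulation.

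H10 cells expressed all 5 inducible subunits at a higher level than C8 cells, and 0 of the 31 constitutive subunits. The inducible genes were raised by 1.37-fold to 2.0-fold, with a median log2 fold change of 0.64, while the median was 0.01 for constitutive subunits and -0.03 for all 19930 genes. Only 1 member was lower in H10 cells, Psma4, which encodes the outer ring subunit α3. A gene was called at an adjusted p under 0.05 in limma (two-sided, adjusted by Benjamini-Hochberg across the 35545 features), and log2 fold changes are H10 minus C8. By this rule H10 cells had 1.85% of all genes higher and 1.04% lower. Of all 45 members, 5 were higher, 1 was lower and 39 did not pass (6 higher and 2 lower at an unadjusted p under 0.05). None of the 6 reached the 5-fold limit that the study's methods add to the FDR. The arrays read RNA of whole cultures, so a change in every cell and a change in a share of the cells cannot be told apart.

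**Figure D1:**
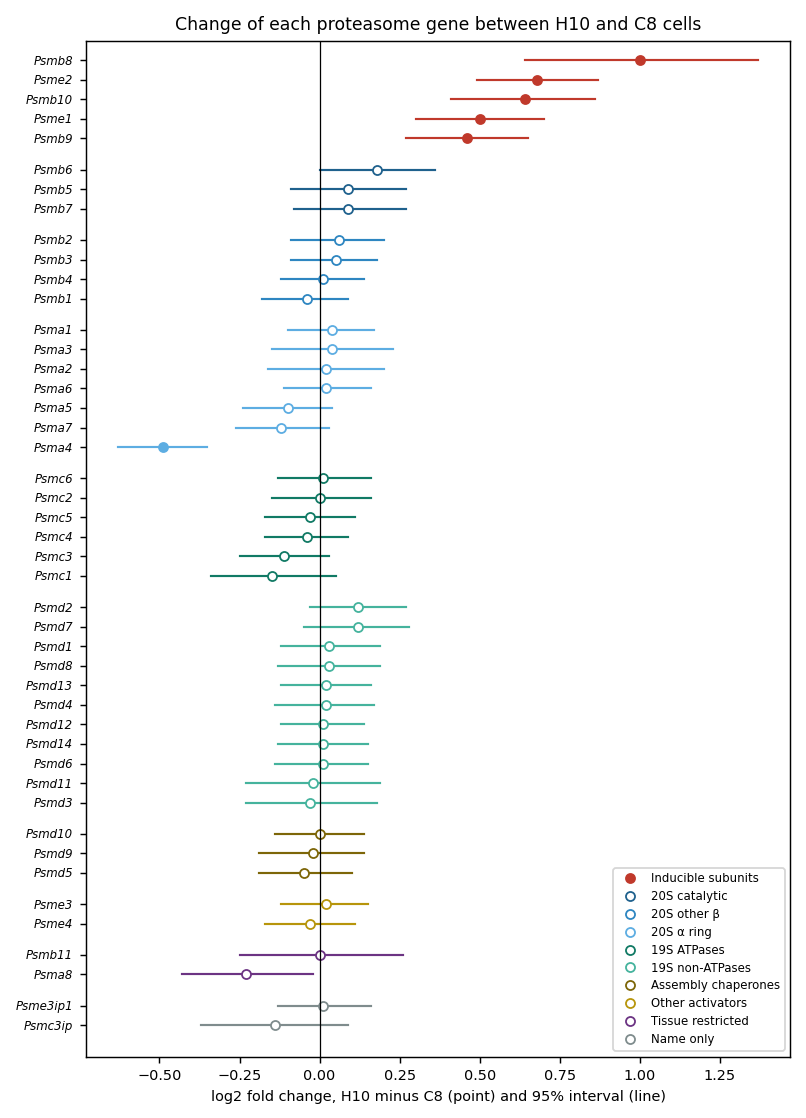
Log2 fold change of each of the 45 genes, H10 minus C8, with its unadjusted 95% interval from limma. Filled points passed an adjusted p under 0.05. The 5 inducible subunits lie at 0.46 or above, the 30 constitutive subunits that did not pass lie between -0.15 and 0.18, and Psma4 lies at -0.49.

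Psmb8 encodes β5i, the inducible form of the chymotrypsin-like subunit, and had the largest change of the 45 genes. Its log2 values were 9.54, 9.67 and 9.59 on the H10 arrays, against 8.95, 8.39 and 8.45 on the C8 arrays. The groups did not overlap, and C8 replicate 1 stood above the other C8 arrays. The difference was 2.0-fold (log2 fold change 1.00 with a standard error of 0.15, limma adjusted p = 0.0274). Psmb10, which encodes β2i, the trypsin-like subunit, had log2 values of 9.77, 9.88 and 9.88 in H10 cells, against 9.39, 9.12 and 9.11 in C8 cells. The groups again did not overlap, and H10 was higher by 1.55-fold on average (log2 fold change 0.64 with a standard error of 0.09, limma adjusted p = 0.025). Psmb9, which encodes β1i, had the smallest change of the 5, with log2 values of 9.3, 9.52 and 9.46 in H10 cells, against 9.04, 8.91 and 8.96 in C8 cells. Its difference was 1.37-fold (log2 fold change 0.46 with a standard error of 0.08, limma adjusted p = 0.0445), and its 95% interval was 0.27 to 0.65.

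Both chains of the PA28 cap were raised as well. Psme2, which encodes PA28β, had log2 values of 12.72, 12.82 and 12.79 on the H10 arrays, against 12.24, 12 and 12.05 on the C8 arrays. This was a 1.6-fold difference with no overlap (log2 fold change 0.68 with a standard error of 0.08, limma adjusted p = 0.0115). Psme1, which encodes PA28α, had log2 values of 11.02, 11.29 and 11.22 in H10 cells, against 10.7, 10.62 and 10.71 in C8 cells. Its difference was 1.41-fold (log2 fold change 0.50 with a standard error of 0.09, limma adjusted p = 0.0421). A further feature is annotated to Psme2 together with Psme2b, a closely related gene, and was left out of the counts because it carries 2 symbols. Its log2 values were 11.39, 11.64 and 11.61 in H10 cells, against 10.72, 10.73 and 10.45 in C8 cells (log2 fold change 0.91, limma adjusted p = 0.0113). How much of that signal comes from Psme2b was not tested. All 5 inducible genes were brighter than the median of every array (7.65 to 7.74) in both lines.

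**Figure D2:**
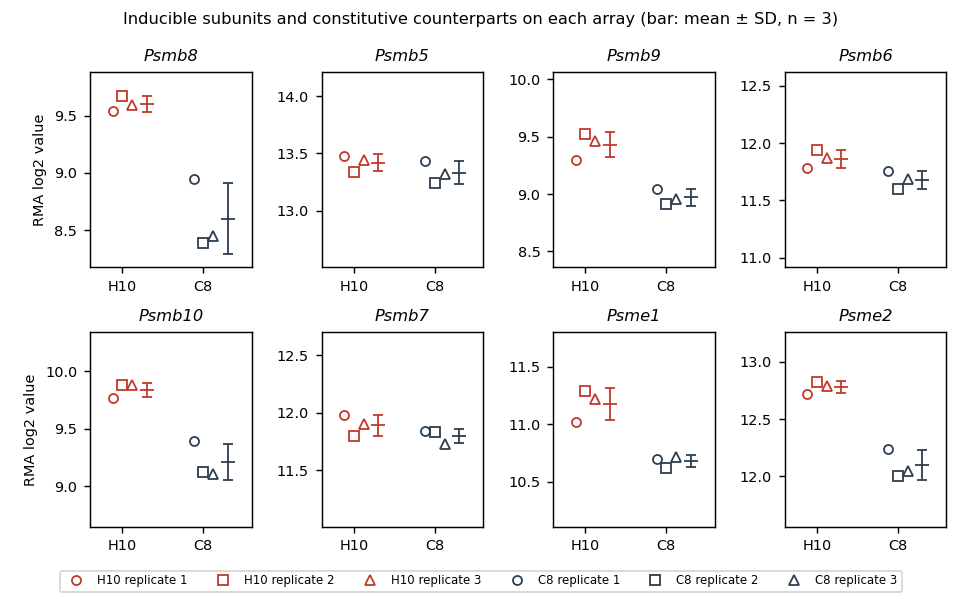
RMA log2 value on each array of H10 cells (left) and C8 cells (right) for the 5 inducible subunits and for Psmb5, Psmb6 and Psmb7, bars giving mean ± SD (n = 3) and every panel spanning the same range of log2 units. The H10 arrays lie above the C8 arrays for the 5 inducible genes and for Psmb6, and overlap with them for Psmb5 and Psmb7.

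The replicate 1 arrays of the 2 lines lay closest to each other in the inducible genes. H10 replicate 1 was the lowest H10 array for 5 of 5 inducible genes, against 11 of 31 constitutive ones and 31.1% of all genes. C8 replicate 1 was the highest C8 array for 4 of 5 inducible genes, Psme1 being the exception, against 19 of 31 constitutive ones and 41.6% of all genes. Without both replicate 1 arrays, an alternative added after the data had been seen, the median log2 fold change of the inducible genes was 0.77, and Psmb8, Psmb10 and Psme2 passed the test. Psmb9 and Psme1 then had larger differences, 0.55 and 0.59, but did not pass (adjusted p = 0.0501 and 0.0532 from limma). The arrays left out lay closest together in the inducible genes, so larger differences without them were fixed by the choice. Most calls were lost when an array was left out. Leaving out H10 replicate 2, H10 replicate 3, C8 replicate 2 or C8 replicate 3 left 0 of the 5 genes past the threshold, although all 5 kept an unadjusted p under 0.05 each time. Without H10 replicate 1 the calls of Psmb9, Psme1 and Psme2 remained, and without C8 replicate 1 those of Psmb8, Psmb10 and Psme2. The log2 fold changes over these 6 fits were 0.90 to 1.18 for Psmb8, 0.59 to 0.73 for Psmb10, 0.41 to 0.52 for Psmb9, 0.44 to 0.58 for Psme1 and 0.63 to 0.75 for Psme2.

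The inducible genes lie at 3 places in the genome. The promoters of 3 of them are shown. Those of Psmb8 and Psme1 hold a match marked in capitals below, and that of Psmb9 holds no marked match. Gene order here is that of GRCm38.p6, limited to measured genes brighter than the table median of 7.7. In this order Psmb9, Tap1, Psmb8 and Tap2 follow one another on chromosome 17, inside the MHC region. Psme1 and Psme2 are next to each other in it, on chromosome 14. Psmb10 lies apart, on chromosome 8. Each sequence runs from 250 bases before to 50 after a RefSeq start site, 5′ to 3′ on the strand of the gene. Capitals mark a match to the core of the interferon-stimulated response element, ISRE (GAAA, any 2 bases and GAAA again), or to that of the interferon-γ-activated site, GAS (TTCNNNGAA), searched on both strands. The 3 windows are Psmb8 at chr17:34197945-34198244 (plus strand), Psmb9 at chr17:34187281-34187580 (minus strand) and Psme1 at chr14:55578244-55578543 (plus strand) of GRCm38.p6.
Psmb8: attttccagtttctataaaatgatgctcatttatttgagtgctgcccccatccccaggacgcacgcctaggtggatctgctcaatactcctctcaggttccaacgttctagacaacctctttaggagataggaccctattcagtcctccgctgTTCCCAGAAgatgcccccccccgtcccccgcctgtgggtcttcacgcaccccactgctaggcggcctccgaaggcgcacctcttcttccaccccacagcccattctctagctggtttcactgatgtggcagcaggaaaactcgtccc
Psmb9: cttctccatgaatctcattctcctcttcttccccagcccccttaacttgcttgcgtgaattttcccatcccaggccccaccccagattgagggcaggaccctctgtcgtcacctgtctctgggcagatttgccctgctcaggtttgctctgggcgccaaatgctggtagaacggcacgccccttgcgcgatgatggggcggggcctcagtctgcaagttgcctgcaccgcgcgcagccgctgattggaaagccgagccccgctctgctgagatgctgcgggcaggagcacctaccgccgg
Psme1: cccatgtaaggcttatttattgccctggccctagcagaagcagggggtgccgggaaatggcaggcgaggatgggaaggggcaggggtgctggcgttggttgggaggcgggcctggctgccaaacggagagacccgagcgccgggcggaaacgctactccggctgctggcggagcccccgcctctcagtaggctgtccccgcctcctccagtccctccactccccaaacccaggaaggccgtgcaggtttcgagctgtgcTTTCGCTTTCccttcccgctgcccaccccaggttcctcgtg
The Psmb8 window holds a GAS core, TTCCCAGAA, that begins at position -97 from the start site. The Psme1 window holds an ISRE core on the opposite strand, printed as TTTCGCTTTC, that begins at position 10 after it. The Psmb9 window holds neither core, nor do those of Psmb10 and Psme2. It shares 275 bases with the window of Tap1, which is read the other way. Tap1 encodes a chain of the transporter that carries proteasome products into the endoplasmic reticulum. Its log2 values were 9.13, 9.29 and 9.23 in H10 cells, against 8.83, 8.33 and 8.5 in C8 cells, a log2 fold change of 0.66 that did not pass the test (adjusted p = 0.0681 from limma). Windows, 42 in all, were found for 38 of the 45 genes. A member gene was counted if any of its windows matched, whereas the percentages are of single windows. An ISRE core was in the windows of 4 of them, Psme1 and the constitutive or chaperone genes Psmb3, Psmd4 and Psmd9, and in 3.44% of all 32851 windows. A GAS core was in those of 2, Psmb8 and Psmd2, and in 8.3% of all windows. The core of the antioxidant response element, TGANNNNGC, was in those of 23 of the 38 and in 41.3% of all windows. These matches are of letters only.

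The 3 catalytic subunits that the inducible ones replace did not pass the test. Psmb5 encodes β5, the constitutive counterpart of Psmb8, and had log2 values of 13.48, 13.34 and 13.44 in H10 cells, against 13.43, 13.24 and 13.32 in C8 cells. The lines overlapped, and the log2 fold change was 0.09 (95% interval -0.09 to 0.27, adjusted p = 0.774 from limma). Psmb7, which encodes β2, had log2 values of 11.98, 11.8 and 11.9 in H10 cells, against 11.84, 11.83 and 11.73 in C8 cells, a log2 fold change of 0.09 (95% interval -0.08 to 0.27, adjusted p = 0.748 from limma). For Psmb6, which encodes β1, the H10 values did not overlap with the C8 values, being 11.78, 11.94 and 11.87 in H10 cells, against 11.76, 11.6 and 11.69 in C8 cells. Its log2 fold change was 0.18 (95% interval 0.00 to 0.36, adjusted p = 0.411 from limma). Of the 6 members higher at an unadjusted p under 0.05 in limma, Psmb6 was the one outside the inducible genes (unadjusted p = 0.0468 from limma).

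Within an array, the difference between an inducible gene and its counterpart removes whatever the 2 features share on that array. For Psmb8 minus Psmb5 it was -3.94, -3.67 and -3.85 log2 units on the H10 arrays, against -4.48, -4.85 and -4.87 on the C8 arrays. For Psmb10 minus Psmb7 it was -2.21, -1.92 and -2.02 in H10 cells, against -2.45, -2.71 and -2.62 in C8 cells. For Psmb9 minus Psmb6 it was -2.48, -2.42 and -2.41 in H10 cells, against -2.72, -2.69 and -2.73 in C8 cells. The H10 arrays were above the C8 arrays for each of the 3 pairs. The inducible gene thus moved further than its counterpart, by 0.91 for Psmb8, 0.54 for Psmb10 and 0.28 for Psmb9 on the log2 scale. These differences are given without a test. Features differ in how strongly they bind RNA, so the negative sign says nothing of which gene of a pair is more abundant.

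The other β subunits hold the inner rings together. Of 4, 0 passed the test, and their log2 fold changes ran from -0.04 for Psmb1 (β6) to 0.06 for Psmb2 (β4). Psmb3 (β3) had log2 values of 13.81, 13.79 and 13.8 in H10 cells, against 13.78, 13.77 and 13.71 in C8 cells. These did not overlap, but the difference was only 0.05 (adjusted p = 0.865 from limma), and on a second feature of Psmb3 the lines overlapped, at 13.78, 13.73 and 13.67 in H10 cells, against 13.77, 13.63 and 13.65 in C8 cells. The α subunits form the gate of the core. Of 7, 6 did not pass, and their log2 fold changes ran from -0.12 for Psma7 (α4) to 0.04 for Psma1 (α6) and Psma3 (α7). The exception was Psma4, whose log2 values were 11.25, 11.16 and 11.17 in H10 cells, against 11.71, 11.68 and 11.67 in C8 cells. Every H10 array was below every C8 array, with an SD of at most 0.05 within a line. Psma4 fell by 0.49 on the log2 scale (standard error 0.06, 95% interval -0.63 to -0.35, limma adjusted p = 0.0113), so that the level in C8 cells was 1.41-fold that in H10 cells. The call of Psma4 remained without H10 replicate 1 or without C8 replicate 1, and was lost without each of the other arrays (adjusted p = 0.0522 to 0.0791). Its log2 fold change was -0.52 to -0.48 over these 6 fits.

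Psma4 lies on chromosome 9, within a stretch of genes that were lower in H10 cells. Of the 40 genes around it in the GRCm38.p6 order that were brighter than the table median of 7.7, 36 had a negative log2 fold change, and their median was -0.41. The genes Wdr61 and Ireb2 on one side had log2 fold changes of -0.38 and -0.39, and Ube2q2 and Fbxo22 on the other had -0.55 and -0.41. Crabp1 and Chrnb4, which lie among them, had -0.04 and 0.01, and Pstpip1, a little further away, had 0.75. Around the inducible genes no such shift was seen. The median over the 40 neighbours was -0.07 for Psmb8 and for Psmb9, -0.03 for Psmb10, -0.01 for Psme1 and -0.02 for Psme2. Psmb8 and Psmb9 have nearly the same neighbours and count each other among them, as do Psme1 and Psme2. The medians within such a pair are therefore not separate observations. Single genes close to the inducible ones did stand out, among them Irf9, which lies after Psme2 and Rnf31 and had a log2 fold change of 1.06, and Dpep2, close to Psmb10, with 0.67.

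**Figure D3:**
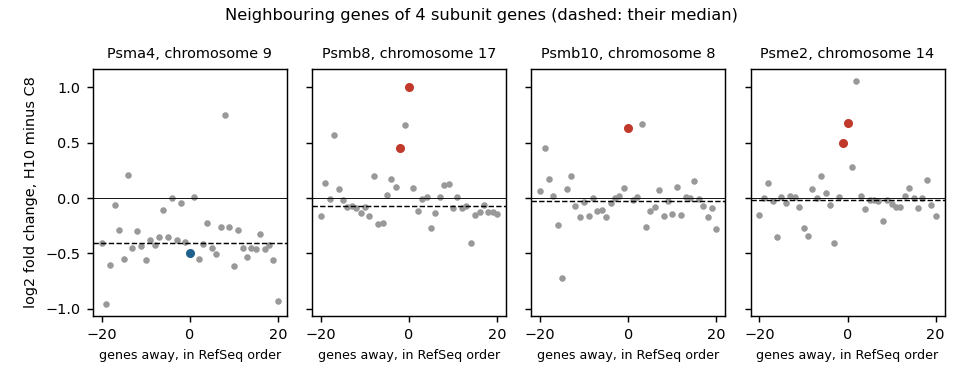
Log2 fold change, H10 minus C8, of the 20 genes on each side of Psma4, Psmb8, Psmb10 and Psme2 in RefSeq gene order, limited to genes brighter than the table median. Inducible subunit genes are red, Psma4 is blue, other genes are grey, and dashed lines mark the median of the neighbours, which is -0.41 around Psma4 and -0.07, -0.03 and -0.02 around Psmb8, Psmb10 and Psme2.

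The 19S particle was measured by 17 genes, and 0 of them passed the test. The 6 ATPases of its base, which unfold the substrate, had log2 fold changes of -0.15 to 0.01. Psmc1 (Rpt2) was lowest, with log2 values of 11.6, 11.6 and 11.54 in H10 cells, against 11.88, 11.67 and 11.63 in C8 cells (95% interval -0.34 to 0.05, adjusted p = 0.601 from limma). A second feature of Psmc1, less bright, had a log2 fold change of -0.03 and overlapped between the lines. Psmc3 (Rpt5) was also below in every H10 array, with a log2 fold change of -0.11 (adjusted p = 0.547 from limma). The 11 non-ATPases of the base and lid had log2 fold changes of -0.03 to 0.12. Psmd2 (Rpn1), a scaffold and ubiquitin receptor, had log2 values of 13.02, 13.04 and 13.05 in H10 cells, against 12.99, 12.9 and 12.86 in C8 cells (95% interval -0.03 to 0.27, adjusted p = 0.547 from limma), and its second feature had the same log2 fold change, 0.12. Psmd7 (Rpn8), which pairs with the deubiquitinase Rpn11, had 0.12 as well, with overlapping arrays, and Psmd14, which encodes Rpn11, had 0.01. Psmd3 (Rpn3), a lid subunit, was lowest with -0.03.

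Across the 30 constitutive subunits that did not pass, 24 had log2 fold changes between -0.1 and 0.1. Their unadjusted 95% intervals reached no lower than -0.34 and no higher than 0.36, while those of the inducible genes reached down to 0.27, so that the 2 sets of intervals overlapped. The SD within a line was 0.01 to 0.14 log2 units for these 30 genes and 0.05 to 0.31 for the inducible ones. The 3 H10 arrays lay above every C8 array for 3 of the 31 constitutive subunits and below them for 5, where 7.74% and 12.7% of all genes showed this, and for 5 and 0 of the inducible ones. These counts use the brightest feature of each gene. Among the constitutive genes counted, a further feature overlapped between the lines for Psmb3, Psmc1 and Psma5, and that of Psmd2 also lay above in H10 cells. Of genes at least as bright as the dimmest constitutive subunit, H10 cells had 2.74% higher and 1.97% lower.

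**Figure D4:**
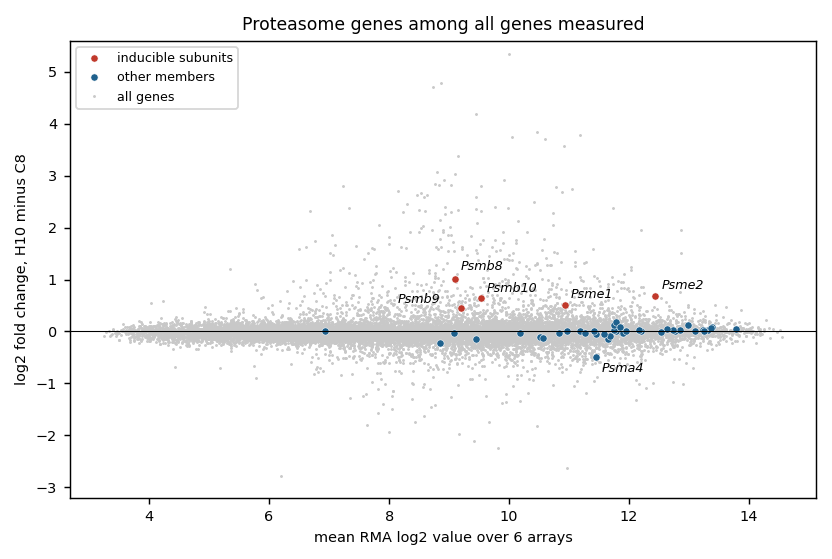
Difference between the lines (log2, H10 minus C8, vertical axis) plotted for each gene over its mean RMA log2 value on the 6 arrays (horizontal axis), with inducible subunits in red and the other 40 members in blue over all 19930 genes in grey. The 5 inducible genes lie above 0 at mean values of 9.1 to 12.44, and most other members lie close to 0.

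The members that are neither inducible nor constitutive subunits did not pass the test. Psme3, which encodes the nuclear activator PA28γ, differed by 0.02 on the log2 scale (adjusted p = 0.964), and Psme4, which encodes the activator PA200, had -0.03 (adjusted p = 0.938). Psmd5, Psmd9 and Psmd10, chaperones that help assemble the base of 19S, had -0.05, -0.02 and 0.00. Psma8, an α subunit of the testis, had log2 values of 8.8, 8.7 and 8.72 in H10 cells, against 9.12, 8.94 and 8.84 in C8 cells, without overlap but with an adjusted p = 0.366 from limma (log2 fold change -0.23). Psmb11, the catalytic subunit of the thymus, averaged 6.94 ± 0.13 in H10 cells and 6.93 ± 0.16 in C8 cells (SD, n = 3), under the median of every array. Psmc3ip, a cofactor of meiotic recombination, and Psme3ip1, a binding partner of PA28γ, match the symbols by their letters only and had log2 fold changes of -0.14 and 0.01.

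Genes that act with the proteasome were counted in 5 further lists. Of 8 genes that assemble or inhibit the proteasome, 0 passed, with a median log2 fold change of -0.01. Among them Pomp, the maturation protein of the core, had 0.12 (adjusted p = 0.772) and the inhibitor gene Psmf1 had 0.00 (adjusted p = 0.992). Of 10 ubiquitin shuttles, deubiquitinases and other associated proteins, 0 passed, with a median of 0.03. The largest value was that of Zfand5, which encodes a zinc finger protein that stimulates the proteasome, with log2 values of 12.15, 12.34 and 12.34 in H10 cells, against 11.71, 11.94 and 11.73 in C8 cells (log2 fold change 0.48, limma adjusted p = 0.0619). Nfe2l1, which encodes the factor that raises constitutive subunit genes when the proteasome is inhibited, differed by -0.03 on the log2 scale (adjusted p = 0.927), and 0 of 3 genes of that control passed. Of 9 genes that act on the inducible subunits through interferon signalling, 2 passed. Irf1, a transcription factor of the immunoproteasome genes, had log2 values of 9.19, 9.13 and 9.3 in H10 cells, against 8.62, 8.25 and 8.4 in C8 cells (log2 fold change 0.78, limma adjusted p = 0.019), and Irf9, a subunit of the factor that binds ISREs, had 10.66, 10.91 and 10.85 in H10 cells, against 9.87, 9.65 and 9.71 in C8 cells (log2 fold change 1.06, limma adjusted p = 0.00405). Stat2 had 0.66 (adjusted p = 0.0765) and Nlrc5, an activator of MHC class I genes, 0.21 (adjusted p = 0.602), while Irf2 had -0.16 (adjusted p = 0.706). The receptor genes Ifngr1, Ifngr2, Ifnar1 and Ifnar2 had log2 fold changes of -0.09 to 0.10. Of 11 genes of peptide trimming and transport, 1 passed, Erap1, an aminopeptidase of the endoplasmic reticulum that trims peptides for MHC class I, with a log2 fold change of 0.63 (adjusted p = 0.0446 from limma). The chaperone gene Tapbp had 0.57 (adjusted p = 0.101), Tap2 had 0.09 (adjusted p = 0.8), and the cytosolic peptidase gene Npepps had -0.17 (adjusted p = 0.378).

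The cultures were checked against markers of their lineage. All 10 macrophage markers measured were brighter than the table median, and 1 of them, Adgre1, was higher in H10 cells. Of 9 osteoclast markers, 6 were higher in H10 cells (median over the 9: 1.27 on the log2 scale), and Calcr and Itgb3 averaged under the table median of 7.7 in both lines. Mmp9, the remaining marker, was brighter, at 10.6 in H10 and 10.95 in C8 cells, and went the other way. Its log2 fold change was -0.34, with overlapping arrays (adjusted p = 0.534 from limma). Of 7 lymphocyte markers 0 passed, and 6 lay under the table median. Of 6 dendritic cell markers 0 passed, with a mean log2 value over the list of 7.12 to 7.17 in H10 and 7.02 to 7.23 in C8 cells. Of 7 fibroblast and endothelial markers 0 passed, with a mean log2 value over the list of 7.42 to 7.6 in H10 and 7.28 to 7.4 in C8 cells. One of them, Dcn, which encodes the matrix protein decorin, had log2 values of 8.46, 7.19 and 7.74 in H10 cells, against 6.5, 6.21 and 6.25 in C8 cells, without overlap (log2 fold change 1.48, limma adjusted p = 0.074), and its part in the results was not tested. Pearson's r over the 35545 features, which are no replicates of each other, was 0.993 to 0.997 between arrays of a line and 0.99 to 0.992 between lines.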

How the data were processed

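RNA of 3 H10 and 3 C8 samples was hybridised to Affymetrix mouse gene arrays. The deposited table holds log2 values that the authors normalized with RMA, a method that subtracts background, brings the arrays to one distribution and combines the probes of each feature. Affymetrix Expression Console is named in the submitters' processing notes without a version. The 35545 features were used without a filter. Of these, 21781 had 1 gene symbol, and the one with the highest mean stood for each of 19930 genes. Of the 45 members, 40 had 1 such feature. H10 was set against C8 in limma 3.58.1 under R 4.3.3 (lmFit, eBayes, 4 residual and 2.57 prior degrees of freedom), after the study's methods, which add a fold limit of 5. The fit was tested on simulated data. An exact permutation of 3 against 3 arrays cannot pass 0.05. Background was not measured, and precision is limited by the 6 arrays.

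The members and lists were chosen with earlier results of these data known. Named genes are the inducible subunits, their counterparts, every member that passed, the extremes of each class, and pathway genes that passed or are chief members. Others, such as neighbouring genes, Psmd14 and Zfand5, were chosen after their values were seen. Promoters are from RefSeq (GRCm38.p6), and the array annotation names no build. Alternatives were fits without each array, with a replicate block, after quantile normalization or median centring, on bright features only, on gene means, with a robust and intensity-dependent prior, with p-values adjusted over 1 feature a gene, at an FDR of 0.01, and with all other members counted as constitutive. Matplotlib 3.10.9 (Python 3.11.15) drew the figures.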

Additional observations from a re-analysis of the deposited data

How the results depend on the processing

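The inducible genes were the members called higher, so both counts are the same. With 1 array left out, 0 to 3 of them passed, and 0 to 1 member was lower. Calls over all genes fell as well, to 152 to 346 higher against 369 with all arrays. With the replicate block, 0 members were higher and 0 lower by limma (5 and 2 at an unadjusted p under 0.05), and 225 and 71 of all genes. The replicate numbers gave no clear pairing of the arrays. The correlation of same-numbered deviations was 0.166, -0.0043 and -0.121, and only the replicate 1 arrays matched their own number best. H10 replicate 2 correlated best with C8 replicate 3, at 0.144, and H10 replicate 3 with C8 replicate 2, at 0.227. Whether the arrays were paired, by number or in this other order, was not tested, and 3 arrays a line cannot settle it. With median centring, 2 inducible genes passed, Psmb8 and Psme2, and Psmb10 had an adjusted p = 0.0501. At an FDR of 0.01, 0 were higher and 0 lower (6 and 2 at an unadjusted p under 0.05). Without the replicate 1 arrays of both lines, chosen after seeing the data, 3 passed. The cause of these losses was not tested. Under quantile normalization, the filter on dim features, the mean of all features, the intensity trend with a robust prior and the adjustment over 1 feature per gene, 5 were higher and 1 lower. The median log2 fold change of the inducible genes stayed between 0.59 and 0.77 and that of the constitutive genes between 0.00 and 0.02 over all alternatives that change them. The highest value, 0.77, came from leaving out both replicate 1 arrays, a choice that widens the differences.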
